A study of Mus musculus with 4 samples.

Results

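Small nucleolar RNAs (snoRNAs) and small Cajal body RNAs (scaRNAs) were examined in mouse invariant natural killer T (iNKT) cells, T cells whose semi-invariant T cell receptor recognises lipids on CD1d. Members were the probe sets of the array whose single platform gene symbol begins with Snord, Snora or Scarna. There were 81 such probe sets for 78 symbols, out of 41345 probe sets in all and 23521 with 1 symbol. By symbol, 47 were C/D box snoRNAs (Snord), 28 were H/ACA box snoRNAs (Snora) and 6 were Cajal body RNAs (Scarna). A further 46 probe sets list such an RNA beside other symbols, mostly its host gene, and were left out by this rule.

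C/D box snoRNAs carry short C and D sequence boxes and guide the methylation of ribosomal RNA riboses by base pairing, while H/ACA box snoRNAs guide the conversion of uridine to pseudouridine. The scaRNAs are built from the same boxes, gather in Cajal bodies and guide the same modifications on spliceosomal RNAs. Most of them are cut from introns of host genes, often genes of ribosomal proteins, translation factors or non-coding transcripts, and each is protected by a set of core proteins. A few snoRNAs act in the cutting of the ribosomal RNA precursor instead of its modification.

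One genotype was CD4-Vα14Tg, in which a Vα14 T cell receptor α chain transgene is driven by the CD4 promoter, and the other was the wild-type (WT) control; each was measured on 2 arrays. The labels give the source as iNKT cells and the RNA as total RNA from frozen tissue, purified with an RNeasy Plus column kit, and name neither an age, a sex, an organ nor a sorting gate. Nothing in them says that the 2 arrays of a genotype came from separate mice, so p-values measure the spread between these samples, which may be technical. Values are log2 expression, 1 per probe set and array, with array medians between 5.04 and 5.07. The 8 T and iNKT cell marker genes with a probe set of their own read from 6.39 to 12.5. By limma, 2 of these 8 were called lower in CD4-Vα14Tg cells, the NK receptor gene Klrb1c (log2 difference -1.45, adjusted p = 0.00127) and the cytokine receptor gene Il2rb (-0.80, adjusted p = 0.0332). A set of 18 markers of other cell types read from 3.03 to 5.64. Of the latter, the myeloid and NK cell integrin gene Itgam was called higher in CD4-Vα14Tg cells (log2 difference 0.67, limma adjusted p = 0.0344), while the myeloid genes Lyz2, Csf1r, Cd14 and Adgre1 lay below the filter. The part of these marker differences, or of other cells, in the results below was not tested.

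snoRNAs of the C/D box class read higher in CD4-Vα14Tg than in WT cells, H/ACA box snoRNAs did so by less, and Cajal body RNAs were split. The median log2 difference (CD4-Vα14Tg minus WT) was 0.93 over 45 tested C/D box members, 0.28 over 28 H/ACA box members and -0.004 over 6 Cajal body probe sets, against -0.023 over all 14351 probe sets tested. A positive difference was found for 42 of 45, 25 of 28 and 3 of 6, against 43.8% of all probe sets. Of the 79 tested members, 9 rose and 1 fell by limma at an adjusted p under 0.05, and 69 did not pass. Over all tested probe sets, 1.16% rose and 1.71% fell, 2.88% together. An unadjusted p under 0.05 was reached by 44 of the 79 members, 43 of them higher and 1 lower. The shares of all probe sets were 12.4%, 4.94% higher and 7.46% lower. A difference of at least 1 on the log2 scale toward CD4-Vα14Tg was found for 21 C/D box, 6 H/ACA box and 1 Cajal body members, against 0.864% of all probe sets. These C/D box counts include Snord52, which passed the filter through the CD4-Vα14Tg arrays alone.

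The arrays of each genotype also differed from each other in these RNAs. Over the 45 C/D box members the median level was 9.65 and 9.24 on the CD4-Vα14Tg arrays and 8.72 and 7.97 on the WT arrays. The H/ACA box medians were 9.27 and 8.97 on the CD4-Vα14Tg arrays and 8.78 and 8.09 on the WT arrays. In contrast, tested probe sets of no short RNA gene had medians of 6.60, 6.65, 6.62 and 6.69 in the same order. The second WT array gave the lowest reading of 59 of the 79 tested members and the first CD4-Vα14Tg array gave the highest of 63, against 20.0% and 22.4% of all probe sets.

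**Figure D1:**
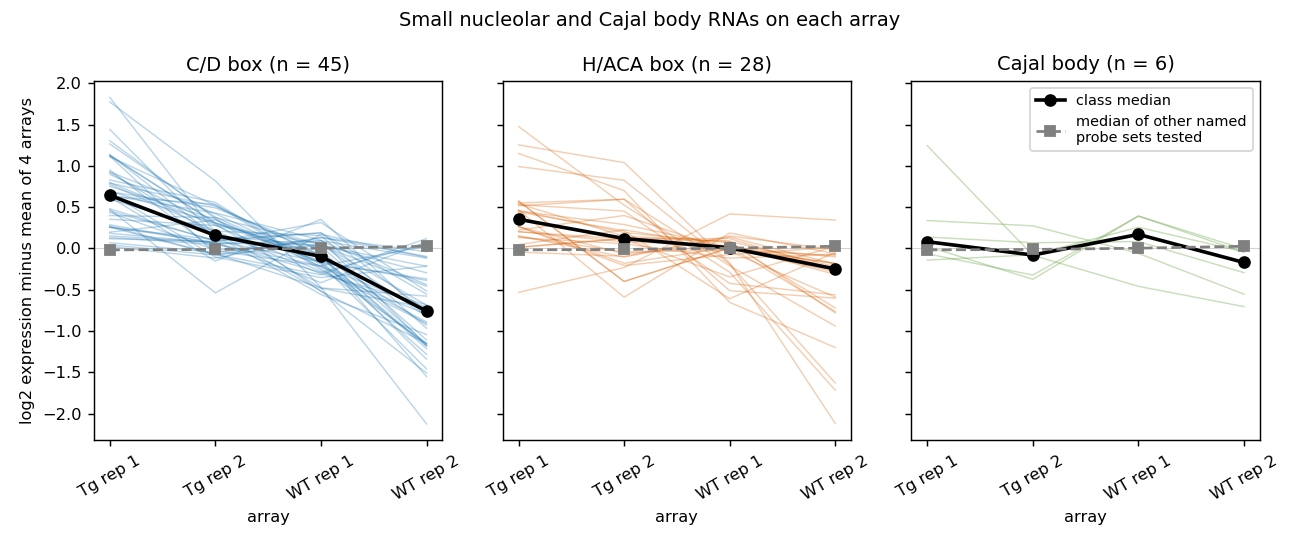
Log2 expression of each tested member on the 4 arrays, as the difference from its own mean over the arrays, by class; each thin line is 1 probe set, black circles are the class medians and grey squares the median of tested probe sets of no short RNA gene. The lines only join values of the same member, since replicates have no order; the C/D box median runs from 0.64 on CD4-Vα14Tg replicate 1 to -0.76 on WT replicate 2, while the grey squares stay between -0.017 and 0.027.

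Both CD4-Vα14Tg arrays lay above both WT arrays for 32 of 45 C/D box, 16 of 28 H/ACA box and 2 of 6 Cajal body members, against 15.9% of all tested probe sets. They lay below for 0, 2 and 2 members, against 23.9%. A single descending order of the arrays, CD4-Vα14Tg replicate 1, CD4-Vα14Tg replicate 2, WT replicate 1 and WT replicate 2, held for 39 of the 79 members, 28 of them C/D box RNAs, against 3.80% of all probe sets. That order was picked out after the values were seen. The genotype difference was larger than both replicate differences for 33 of 79 members, against 28.6% of all probe sets. For most members it was therefore no larger than at least 1 of the replicate differences.

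Snord1b had the largest difference of any member. It is a C/D box RNA inside Snhg16, a non-coding host gene without a probe set of its own here. The arrays read 10.73 and 9.77 in CD4-Vα14Tg and 8.48 and 6.83 in WT cells. The groups did not overlap, yet the WT arrays were 1.66 apart. The log2 difference was 2.59, or 6.04-fold (10.25 ± 0.68 against 7.66 ± 1.17, SD, n = 2 arrays each, limma adjusted p = 0.0493, 95% interval 1.38 to 3.81). With 1 array left out, the log2 difference of Snord1b ran from 1.77 (WT replicate 2 dropped) to 3.42 (WT replicate 1 dropped). Of these 4 fits it passed only in the latter, with limma adjusted p of 0.165 and 0.0503 when CD4-Vα14Tg replicate 1 or 2 was dropped and 0.0734 when WT replicate 2 was. Over all 12 alternatives the call was lost in 8.

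Snord66, which lies in the gene of the translation initiation factor Eif4g1, read 9.17 and 8.22 against 7.34 and 6.71. The groups did not overlap, and the rise was 3.18-fold (limma adjusted p = 0.0433). Snord73b, from the ribosomal protein gene Rps3a1, read 10.95 and 10.68 against 9.88 and 8.97. It rose 2.61-fold (limma adjusted p = 0.0493), with the WT arrays the wider pair. Snord71, which RefSeq places within both the adaptor protein gene Ap1g1 and the gene Gm17344, read 9.34 and 8.74 against 7.96 and 7.73. Its rise was 2.29-fold (limma adjusted p = 0.0286). Snord16a, from the ribosomal protein gene Rpl4, read 11.46 and 11.36 against 10.57 and 9.92, with CD4-Vα14Tg arrays close together and WT arrays apart. It rose 2.24-fold (limma adjusted p = 0.0323). The calls of Snord66, Snord73b, Snord71 and Snord16a were lost under 5, 7, 4 and 4 of 12 alternatives. None of the 4 passed with CD4-Vα14Tg replicate 1 dropped (limma adjusted p from 0.0619 to 0.170), nor with WT replicate 2 dropped (0.0666 to 0.173). Dropping CD4-Vα14Tg replicate 2 also ended the calls of Snord16a and Snord73b (0.0898 and 0.0965), and dropping WT replicate 1 that of Snord71 (0.0553).

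The 3 lowest adjusted p-values among the members belonged to H/ACA box RNAs. Snora30, an RNA within the chromatin remodeller gene Srcap, read 7.95 and 8.03 in CD4-Vα14Tg and 6.92 and 6.83 in WT cells. Its replicates differed by 0.09 or less, and it rose 2.16-fold (7.99 ± 0.06 against 6.88 ± 0.06, SD, n = 2, limma adjusted p = 0.00347). Snora31, within Tpt1, the gene of translationally controlled tumor protein, read 10.15 and 10.07 against 9.20 and 9.06. It rose 1.98-fold (10.11 ± 0.06 against 9.13 ± 0.10, limma adjusted p = 0.00688). Snora69, within the ribosomal protein gene Rpl39, read 9.01 and 8.56 against 7.21 and 6.66. It rose 3.61-fold (8.79 ± 0.32 against 6.94 ± 0.39, limma adjusted p = 0.00546). Among the 10 called members, these 3 kept the call when any 1 array was left out, with adjusted p up to 0.0464.

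Snora16a rose 2.22-fold, from 10.85 and 10.12 in WT to 11.61 and 11.66 in CD4-Vα14Tg cells (limma adjusted p = 0.0464). Snora78 was the one member that fell. It read 7.91 and 8.21 in CD4-Vα14Tg and 8.86 and 8.79 in WT cells, a 1.70-fold difference (8.06 ± 0.21 against 8.83 ± 0.05, limma adjusted p = 0.0378). RefSeq places it within both the ribosomal protein gene Rps2 and the non-coding gene Snhg9, and Snhg9 itself had a log2 difference of -0.19 (limma adjusted p = 0.668). Each of these calls was lost under 6 of 12 alternative fits. For Snora16a, the adjusted p was 0.127 and 0.142 when CD4-Vα14Tg replicate 1 or 2 was dropped and 0.0820 when WT replicate 2 was. For Snora78 it was 0.148 with CD4-Vα14Tg replicate 1 dropped, and 0.149 and 0.128 with WT replicate 1 or 2 dropped.

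**Figure D2:**
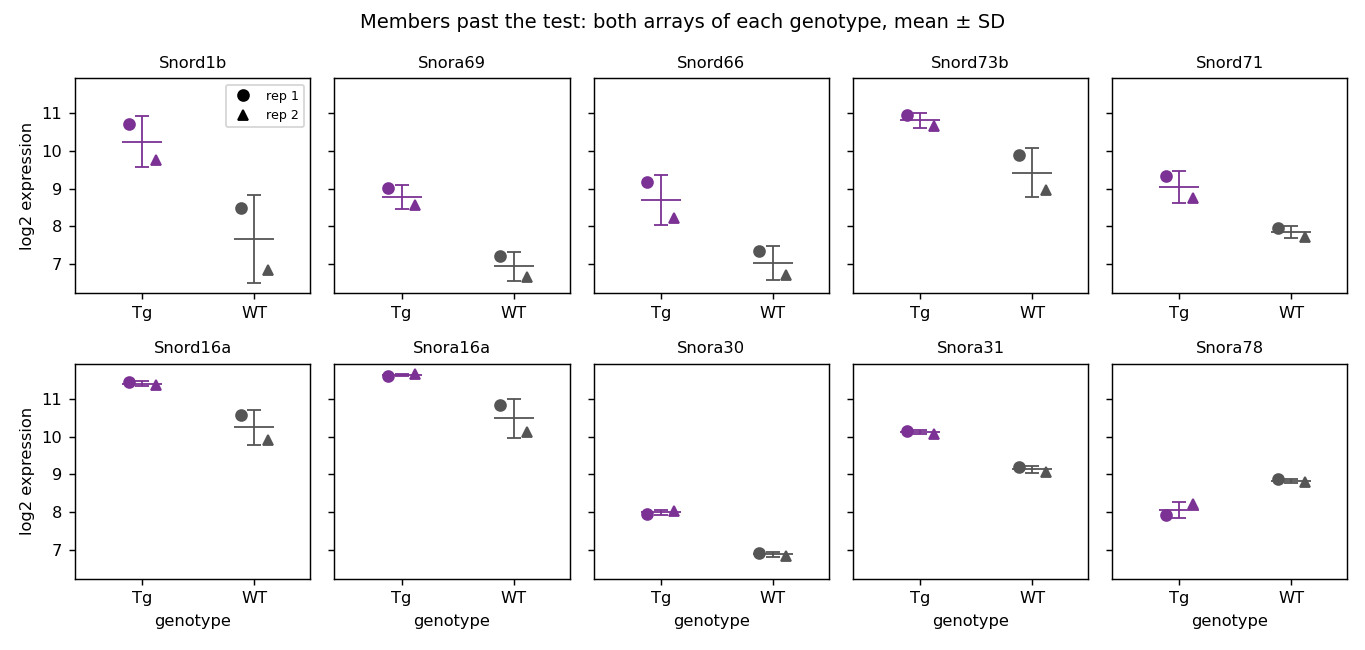
Log2 expression of the 10 members past the test, with both arrays of each genotype (circle, replicate 1; triangle, replicate 2) and the mean ± SD of 2 arrays. Snora30 and Snora31 have tight pairs in both genotypes, while the WT pair of Snord1b is 1.66 apart.

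The calls depended on single arrays. With CD4-Vα14Tg replicate 1 left out, 3 members were called higher, and leaving out WT replicate 2 gave 5. The counts were 13 when CD4-Vα14Tg replicate 2 was dropped and 31 when WT replicate 1 was. Of all probe sets, 0.822%, 0.857%, 0.864% and 0.976% were called higher in these fits, in the same order. In the C/D box class, limma called 0 members in the first and in the second of these fits, where 20 and 23 had an unadjusted p under 0.05. The class median was lowest at 0.58 and highest at 1.18 over these fits and stayed positive. When probe sets with several symbols or with none entered the fit as well, 0 members were called (34 at an unadjusted p under 0.05). The smallest limma adjusted p was then 0.0552, that of Snora30.

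**Figure D3:**
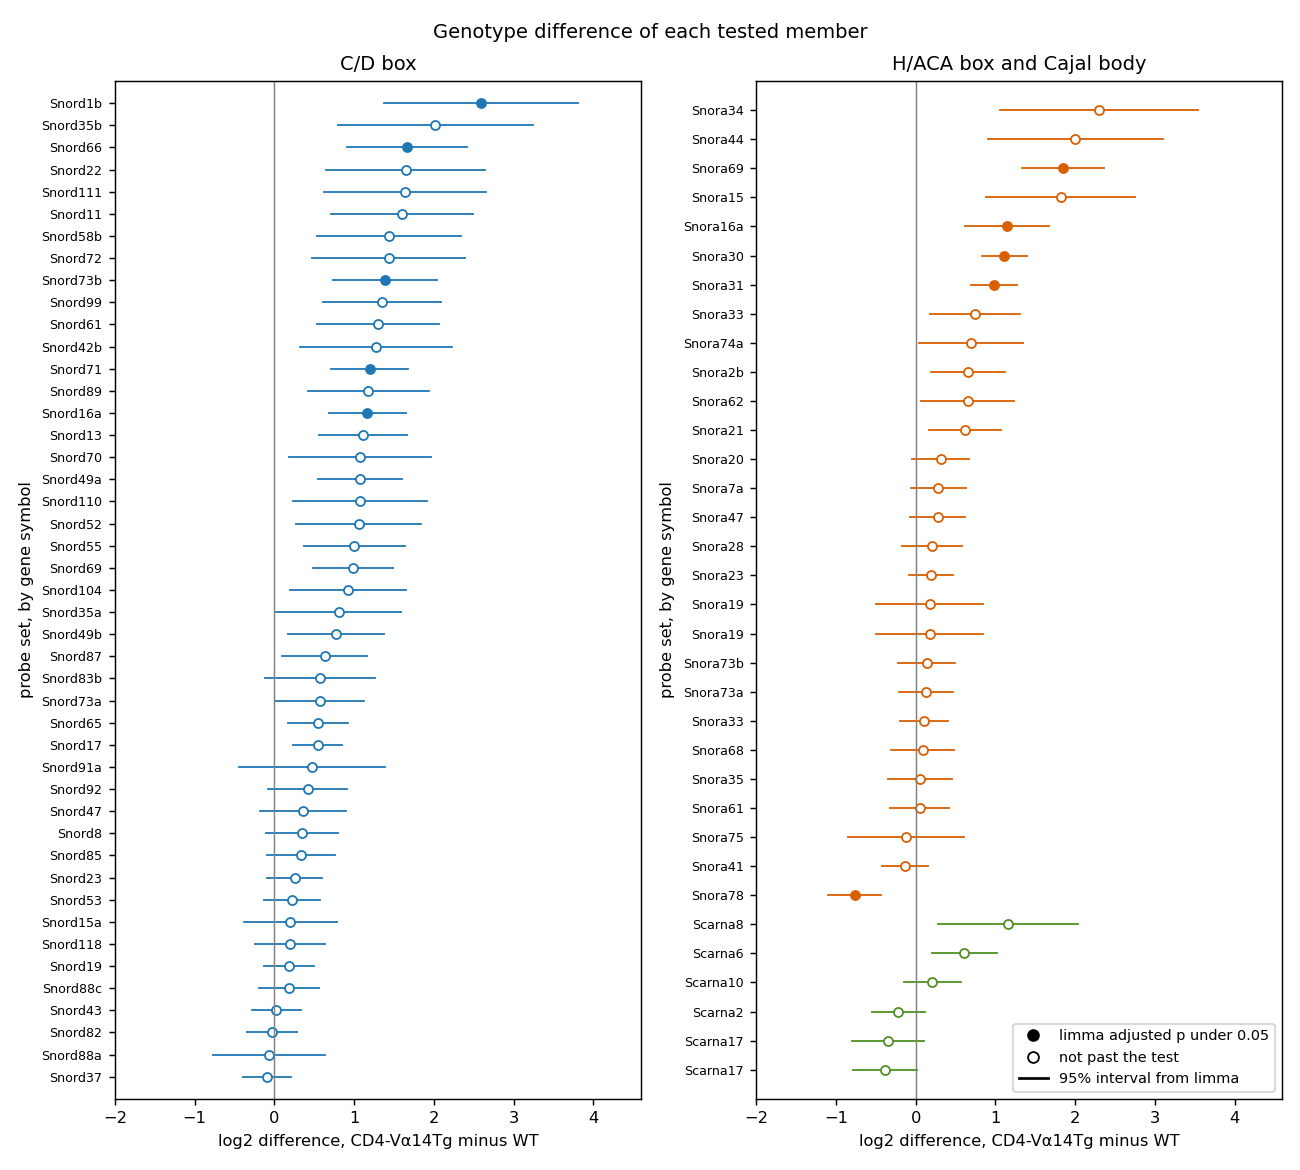
Log2 difference (CD4-Vα14Tg minus WT) of each tested member with its 95% interval from limma, by class; filled circles passed the test at an adjusted p under 0.05. Many open circles lie above 1 with wide intervals, such as Snora34 at 2.29, and the Cajal body probe sets run from -0.39 to 1.16.

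Several large differences did not pass. The H/ACA box RNA Snora34 read 10.87 and 10.66 in CD4-Vα14Tg cells, and 9.44 and 7.50 in WT cells. Its difference of 2.29 (limma adjusted p = 0.0833) stands beside a WT replicate difference of 1.94, the largest of any member. It lies in Kansl2, a gene of a histone acetyltransferase complex, where RefSeq also places the hairpin of the microRNA gene Mir1291. The 2 annotated intervals share 73 bases; whether probes for 1 read the other was not tested. The hairpin, with the mature microRNA in capitals, is shown because it belongs to the locus with the widest replicate gap (RefSeq, GRCm38.p6, chr15:98519762-98519878, minus strand).
Mir1291: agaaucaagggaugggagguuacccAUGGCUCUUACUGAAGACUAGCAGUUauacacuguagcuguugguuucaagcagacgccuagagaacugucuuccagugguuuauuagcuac
Snora15, within the chaperonin gene Cct6a, had the same form. Its arrays read 9.87 and 9.70 against 8.69 and 7.25 (log2 difference 1.82, limma adjusted p = 0.0695). In both RNAs the CD4-Vα14Tg arrays lay close together and the spread was on the WT side.

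Among C/D box RNAs, Snord35b, Snord22 and Snord111 differed by 2.02, 1.65 and 1.63 without passing (0.119, 0.119 and 0.130 as limma adjusted p). Snord35b read 9.14 and 7.50 against 6.80 and 5.80, so its CD4-Vα14Tg arrays were 1.64 apart. Snord22, which acts in the processing of the small subunit ribosomal RNA and lies in Snhg1, read 12.62 and 11.73 against 11.16 and 9.89. Snord111, within the splicing factor gene Sf3b3, read 9.67 and 9.08 against 8.47 and 7.01. All 3 followed the descending order of arrays given above.

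Some C/D box members had differences close to 0. Snord82, inside the nucleolin gene Ncl, was the brightest on average of its class and read 12.34 and 12.22 against 12.43 and 12.20. Its arrays overlapped, and the difference was -0.04 (95% interval -0.35 to 0.28). Snord37, from the elongation factor gene Eef2, read 7.69 and 7.55 against 7.80 and 7.62, and Snord88a read 6.57 and 5.56 against 6.27 and 5.99. These 3 had the only negative differences among tested C/D box RNAs (-0.09 for Snord37, -0.06 for Snord88a). The sign of Snord82 and that of Snord88a turned when single arrays were left out. Other bright C/D box RNAs were Snord87 at 12.28 and 12.21 against 11.98 and 11.24, and Snord47 at 12.11 and 11.96 against 12.05 and 11.30. Their log2 differences of 0.63 and 0.36 did not pass (limma adjusted p = 0.286 and 0.639). For Snord47 the genotypes overlapped, and without WT replicate 2 its difference was -0.01.

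Snord118 and Snord13 lie within no gene of the RefSeq table and are known as RNAs with promoters of their own. Snord118, which is needed for processing of the large subunit ribosomal RNAs, read 8.01 and 7.66 against 7.42 and 7.85, and its groups overlapped. Snord13, which guides acetylation of the small subunit RNA, read 12.15 and 11.75 against 11.18 and 10.51, with no overlap, and had a log2 difference of 1.11 (limma adjusted p = 0.0620). Snora73a and Snora73b, H/ACA box RNAs of Snhg3 that act in precursor cutting, differed by 0.13 and 0.14 (0.846 and 0.856 as limma adjusted p). For both, the arrays of the genotypes overlapped.

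Of the H/ACA box members, Snora33 was the brightest, with one of its 2 probe sets at 13.09 and 12.92 against 12.65 and 11.87. Its other probe set read 8.02 and 7.84 against 7.86 and 7.79, and the log2 differences were 0.74 and 0.10 (limma adjusted p = 0.224 and 0.870). The 2 probe sets of Snora19 held identical values on every array and carry the information of 1. Snora21, from the ribosomal protein gene Rpl23, read 11.65 and 11.82 against 11.39 and 10.84. At the other end, Snora75 and Snora41 stood at -0.12 and -0.14 (0.959 and 0.790 as limma adjusted p), and the CD4-Vα14Tg arrays of Snora75 were 1.06 apart. Snora75 turned positive without CD4-Vα14Tg replicate 2, at 0.41.

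RNAs inside ribosomal protein genes were spread over a wide range. Snord58b, in Rpl17, read 10.44 and 9.61 against 9.15 and 8.03, and Snord72, in Rpl37, read 9.29 and 8.48 against 8.08 and 6.83. Snord42b, in Rpl23a, read 8.96 and 7.96 against 7.73 and 6.64. All 3 had both CD4-Vα14Tg arrays above both WT arrays, with log2 differences of 1.44, 1.43 and 1.28, and none passed (the lowest limma adjusted p was 0.136, for Snord58b). Snora62, in Rpsa, read 10.02 and 9.76 against 9.63 and 8.84 and differed by 0.65. Near 0 lay Snord43, in Rpl3, at 7.31 and 7.19 against 7.33 and 7.12, with overlapping groups.

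Members of low signal gave little. Snord90 and Snord123, the 2 below the filter, read from 3.38 to 3.86 and from 4.17 to 4.37, and their genotypes overlapped. Snord52 read 5.93 and 4.75 against 4.33 and 4.23, so it passed the filter through the CD4-Vα14Tg arrays alone. It is still part of the C/D box counts above of positive and large differences, of non-overlap and of the descending order. The 46 probe sets that list a snoRNA or scaRNA beside other symbols can hold exons of the host as well. Their median difference was 0.08, with 38 positive, and both CD4-Vα14Tg arrays lay above both WT arrays for 12 of them and below for 3, against 43.8%, 15.9% and 23.9% of all tested probe sets.

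Cajal body RNAs went both ways and none of their 6 probe sets passed the test, while 2 had an unadjusted p under 0.05. The shares of all tested probe sets were 2.88% and 12.4%, so 0 calls among 6 is near the background. Scarna8 read 7.01 and 5.68 against 5.30 and 5.06, and its difference of 1.16 (limma adjusted p = 0.223) was smaller than the gap of 1.33 between its CD4-Vα14Tg arrays. Scarna6 read 10.87 and 10.81 against 10.47 and 9.98, a difference of 0.61 (limma adjusted p = 0.160). Scarna10, a guide with both kinds of box that modifies a spliceosomal RNA and the brightest of the class, read 11.61 and 11.54 against 11.55 and 11.17. By contrast, Scarna2 read 10.98 and 11.04 against 11.38 and 11.08 (log2 difference -0.22, limma adjusted p = 0.647). The probe sets of Scarna17 stood at -0.35 and -0.39 (0.578 and 0.424 as limma adjusted p), in the same direction as each other.

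Replicates of a genotype also differed in these RNAs. In WT cells the C/D box median of replicate 1 minus replicate 2 was 0.65, with a range from -0.50 to 1.66, and in CD4-Vα14Tg cells it was 0.39, with a range from -0.15 to 1.64. The H/ACA box medians were 0.29 and 0.18, the Cajal body medians 0.39 and 0.16, and those of all tested probe sets -0.028 and -0.007. An absolute difference over 1 between WT arrays was seen for 15 of the 79 members, against 0.244% of all probe sets, and between CD4-Vα14Tg arrays for 6, against 0.286%. Replicate 1 was above replicate 2 in both genotypes for 61 members, against 25.2%. Since replicates have no order, this says only that the members shifted together from array to array.

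**Figure D4:**
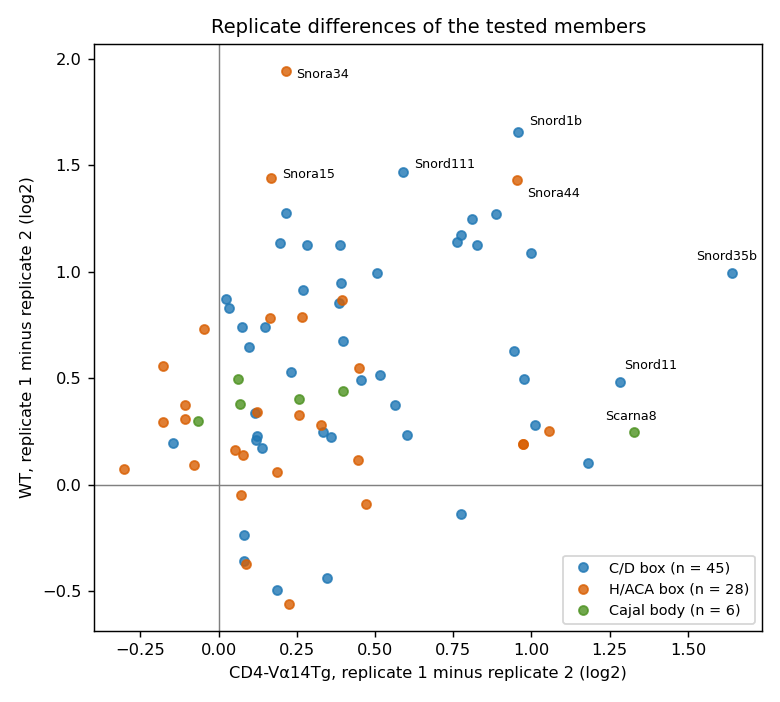
Replicate 1 minus replicate 2 in CD4-Vα14Tg (x axis) and WT (y axis) on the log2 scale, 1 point per tested member, coloured by class. Most of the points (61 of 79) lie in the upper right corner, where both differences are positive, and Snora34 stands highest at 1.94 on the WT axis.

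Across the 79 members the 2 replicate differences, which share no array, had a Pearson r of 0.24 and a Spearman rho of 0.25, given as a description, since the members share arrays and normalization. Over all tested probe sets the Pearson r was 0.26. Members with the widest WT pair were therefore only in part those with the widest CD4-Vα14Tg pair. Snora34 and Snora15 were wide in WT cells alone, Snord35b and Snord1b in both, and Scarna8 and Snord11, a C/D box RNA of the Nop58 gene, mostly in CD4-Vα14Tg cells. Between the arrays nearest to each other across genotypes, CD4-Vα14Tg replicate 2 and WT replicate 1, the C/D box median was 0.33, with 34 of 45 members positive. Between the outermost arrays it was 1.54, with 45 of 45 positive.

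Host genes showed small differences beside those of the RNAs they contain. By RefSeq coordinates, 71 members lay inside exactly 1 protein-coding or non-coding gene, and for 57 of them both the member and its host were tested, with 41 hosts. The median log2 difference was 0.61 for these members and -0.06 for the hosts, whose differences ran from -0.57 to 0.32. By limma 0 of the 41 hosts were called in either direction, and 3 had an unadjusted p under 0.05. The shares of all tested probe sets were 2.88% and 12.4%, so 0 calls in a list of this size is near the background. Of the 57 members 6 were called higher, against 1.16% of all tested probe sets. The sign was the same for 18 of 57 pairs, and the member lay above its host in 52. A positive difference was found for 11 of the 41 hosts and for 70 of the 79 tested members. These pair counts follow largely from those shares and are no separate result. Hosts with several members enter more than 1 pair, and Snora19 enters with 2 identical probe sets. Snora31 and Tpt1 were the pair with the lowest host: Snora31 rose by 0.98 on the log2 scale, and Tpt1 had -0.57 (limma adjusted p = 0.102). Each host was read by its brightest probe set, and whether that probe set lies at the host locus was not checked. For some hosts, such as Rps3a1, Rpl3, Rpl23a and Rpsa, its platform number was far from those of the members inside. Such probe sets may lie outside the host locus, and their values are part of the host medians.

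**Figure D5:**
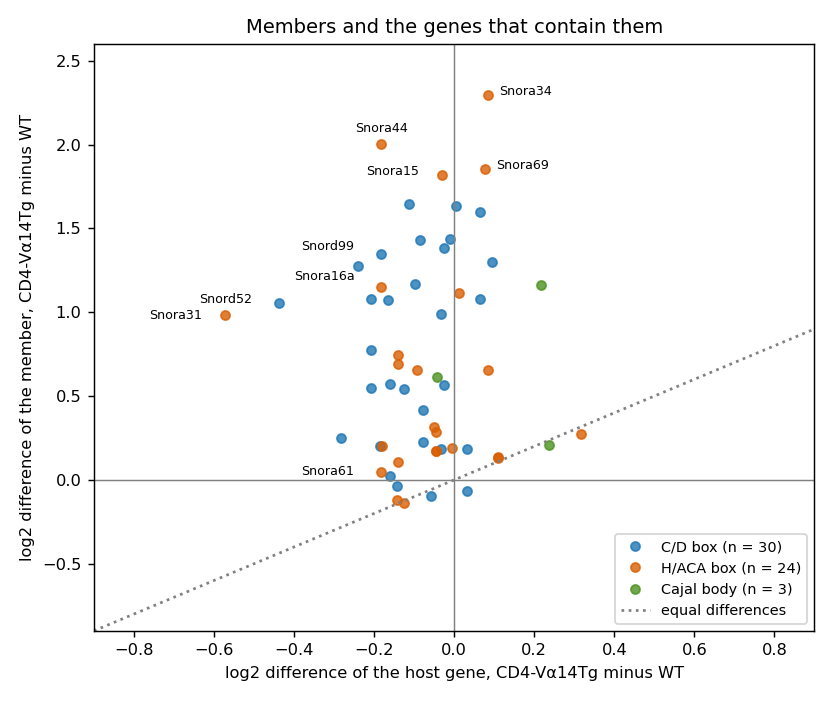
Log2 difference (CD4-Vα14Tg minus WT) of the gene that contains a member (x axis) against that of the member (y axis), for 57 pairs, coloured by class; the dotted line marks equal differences. Hosts, each read by its brightest probe set, lie between -0.57 and 0.32 while members reach 2.29. For some hosts that probe set may lie outside the host locus. Members of Snhg12 (Snora44, Snord99, Snora16a and Snora61) spread from 2.00 to 0.05 at one host value.

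Several hosts contain more than 1 member. Snhg12, a non-coding gene with 4 members inside it, had a log2 difference of -0.18 (7.62 ± 0.25 against 7.80 ± 0.14, SD, n = 2, limma adjusted p = 0.777). Snora44 read 11.90 and 10.94 against 10.13 and 8.70, a difference of 2.00 (limma adjusted p = 0.0872). Snord99 read 11.16 and 10.66 against 10.06 and 9.06, a difference of 1.35 (limma adjusted p = 0.0884). Snora16a, given above, was called higher, whereas Snora61 read 9.53 and 9.27 against 9.51 and 9.18, a difference of 0.05 (95% interval -0.32 to 0.42). Whether these differences within Snhg12 differ from each other was not tested.

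The promoter windows of Snhg12, the host of these 4 RNAs, and of Snhg16, which holds Snord1b, are shown as 300 bases around the annotated start (RefSeq, GRCm38.p6, plus strand, chr4:132308428-132308727 and chr11:116671410-116671709). Capitals mark the letters TATATAA and CCTTTC, a stretch of pyrimidines of the kind found at the start of transcripts of the translation machinery.
Snhg12: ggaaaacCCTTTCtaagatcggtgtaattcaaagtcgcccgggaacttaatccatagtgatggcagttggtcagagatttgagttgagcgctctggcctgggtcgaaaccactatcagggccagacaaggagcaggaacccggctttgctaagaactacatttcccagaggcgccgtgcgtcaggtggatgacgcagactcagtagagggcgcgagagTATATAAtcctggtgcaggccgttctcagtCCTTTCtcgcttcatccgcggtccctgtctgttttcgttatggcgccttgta
Snhg16: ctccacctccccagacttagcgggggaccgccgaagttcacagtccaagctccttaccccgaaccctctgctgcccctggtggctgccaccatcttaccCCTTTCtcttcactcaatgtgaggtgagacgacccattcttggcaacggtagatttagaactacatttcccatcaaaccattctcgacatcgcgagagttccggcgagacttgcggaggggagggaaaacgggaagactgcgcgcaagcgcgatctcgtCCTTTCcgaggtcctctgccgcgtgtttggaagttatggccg
On either strand, CCTTTC was in 23.8% and TATATAA in 3.24% of the 32851 windows of the table, so matches to the first are common. Of 42 host genes with a window, 15 had CCTTTC and 2 had TATATAA. Both windows hold CCTTTC 2 times on the strand shown, and only the Snhg12 window of these 2 holds TATATAA. The first CCTTTC copy begins at -243 (Snhg12) and -151 (Snhg16) from the annotated start, so these 2 copies are not at a transcript start. The motifs were chosen after the sequences had been read, and a match is a description of the letters alone.

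Other shared hosts gave a mixed picture. Snord69 and Snord19, both in the nucleolar GTPase gene Gnl3, had differences of 0.99 and 0.18 beside -0.03 for Gnl3. Snord49a, Snord49b and Snord65 of the non-coding gene 2410006H16Rik had 1.08, 0.77 and 0.55 beside -0.21, and Snord11 and Snord70 of Nop58 had 1.60 and 1.08 beside 0.06. The RNAs of the Ncl gene, Snord82 and Snora75, were both close to 0 beside -0.14. None of the RNAs listed in this paragraph so far passed the test, the nearest being Snord49a (limma adjusted p = 0.0567). Rps3a1 also holds 2 members, Snord73b, called higher as given above, and Snord73a at 0.57 (limma adjusted p = 0.390). Kansl2 holds Snora34 and Snora2b, at 2.29 and 0.66, and neither passed. Not every shared host is listed here.

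The genes of the proteins that bind and assemble these RNAs showed no call by limma. Of 31 listed core, assembly and Cajal body protein genes, 27 were tested, 0 were called (0 at an unadjusted p under 0.05) and 9 had a positive difference, with a median of -0.06 and a range from -0.26 to 0.21. Of all tested probe sets 2.88% were called and 43.8% had a positive difference, so a list of this size with 0 calls is near the background. Nop56 and Nop58, core proteins of C/D box particles, had -0.17 and 0.06, and Snu13, which binds the box motif, had -0.20 (limma adjusted p = 0.681, 0.942 and 0.757). Dkc1, the pseudouridine synthase of H/ACA box particles, had -0.06, and its partners Nhp2, Nop10 and Gar1 had -0.14, -0.01 and 0.09. Coil, the gene of the Cajal body scaffold coilin, had -0.10. Among 16 tested non-coding host genes 0 were called and 1, Snhg17, had an unadjusted p under 0.05 (log2 difference 0.61, limma adjusted p = 0.241).

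Other short RNAs were uneven. Of 171 tested microRNA probe sets, 5 rose and 0 fell, against 1.16% and 1.71% of all probe sets, with a median of 0.08 and replicate medians of -0.01 in CD4-Vα14Tg and 0.10 in WT cells. Among 11 further short RNA probe sets, the Y RNA Rny3 rose 2.00 on the log2 scale, from 5.58 and 4.73 to 7.23 and 7.08 (limma adjusted p = 0.00775). Rny1, at 9.56 and 8.66 against 8.70 and 6.17, did not pass (limma adjusted p = 0.404), and its WT arrays were 2.53 apart. The probe set of n-R5s136, a 5S ribosomal RNA gene, read 11.78 and 11.48 against 10.95 and 9.39, in the descending order of arrays seen for many members, and did not pass (log2 difference 1.46, limma adjusted p = 0.182). Rn7sk, Rpph1 and Terc, the telomerase RNA with an H/ACA box, had differences from -0.43 to 0.11, none past the test. The rest of the 11, Rnu3a, Rnu11, Rnu12 and Vaultrc5, had 0.19, -0.13, -0.19 and -0.07 and did not pass either. Array probes inside an intron cannot tell a finished snoRNA from the precursor around it, and fewer cells of a type and less RNA per cell cannot be told apart in these samples. How well the column kept RNAs this short on each array was not measured, and its part in the differences was not tested.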

How the data were processed

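RNA of iNKT cells was hybridised to 4 Affymetrix whole-transcript arrays, 2 CD4-Vα14Tg and 2 WT, grouped by sample title. The deposited values are log2 expression per probe set; RMA and Affymetrix Power Tools are named in the submitters' processing notes, without versions. The build, like the options, is not given in the sources used here. Precision is limited by the number of arrays, and quantile-type normalization, part of RMA, cannot show a shift of all RNAs.

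Symbols came from the platform annotation: 23521 probe sets had 1 symbol, 1814 several and 16010 none there. Probe sets at or above the 40th percentile of named ones on at least 2 arrays were tested (14351); 79 of 81 members passed. Snord123 and Snord90 did not, and Snord52 passed through CD4-Vα14Tg arrays alone; over all 81 members the median difference was 0.57. The genotype fit used limma 3.58.1 under R 4.3.3 (lmFit, eBayes, two-sided, Benjamini-Hochberg over all tested, threshold 0.05), after tests on simulated data; adjusted p-values are from this fit. Figures used Python 3.11.15 and matplotlib 3.10.9.

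Hosts are genes whose RefSeq (GRCm38.p6) interval contains a member; all 81 matched by Entrez number, and strand, not in that table, was not checked. Members, lists and tests were chosen with earlier results of these data known. Named members were those called, the 4 largest differences each way and 3 brightest per class, and the 4 widest replicate pairs, with their hosts, core proteins and any called symbol whose probe sets disagree in sign; others sharing a host or role, or just past the threshold, were picked after their values were seen. Alternatives covered filters, probe sets in the fit, normalization, variance model, replicate block and leaving out each array.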

Additional observations from a re-analysis of the deposited data

How the results depend on the processing

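Calls of members moved with most choices, and least with the normalization and variance model. The C/D box and H/ACA box medians stayed positive under all alternatives run. They moved by less than the SD of array medians between replicates (0.43 and 0.37). The C/D box replicate medians, run only for the filter, probe set and normalization alternatives, also moved by less than 0.43. That SD comes from the same replicate differences, so it is no independent yardstick for them. Against 9 members higher, 1 lower, 5 C/D box and 5 H/ACA box calls, no filter gave 5, 0, 2 and 3, and 1 probe set per gene gave 5 higher with 2 C/D box calls and 265 probe sets called in all, against 413. Every probe set, named or not, gave 135 calls in all and 0 for members higher, members lower, C/D box and H/ACA box. The 60th percentile filter gave 8 C/D box calls, and a repeated quantile normalization gave 9 members higher, 0 lower and Snord82 at 0.020. Centring the arrays on probe sets of no short RNA gene gave 10 members higher and 1 lower. An intensity trend with robust variance also gave 10 and 1. Of all calls 40.4% were higher, and 63.7% with every probe set. The median of other short RNA genes was 0.078, and 0.031 without a filter.

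With 1 array left out, the lone array of its genotype was assumed to vary like the others. These fits gave 230 to 305 calls in all, 3 to 31 members higher, 0 to 1 lower, 0 to 19 C/D box, 3 to 11 H/ACA box and 0 to 1 Cajal body calls. Median differences ran from 0.58 to 1.18 (C/D box), 0.17 to 0.47 (H/ACA box), -0.17 to 0.16 (Cajal body), -0.16 to -0.0125 (hosts) and 0.031 to 0.11 (other short RNA genes). The sign of 4 named members turned: Snora75 ran from -0.65 to 0.41 (the latter without CD4-Vα14Tg replicate 2; 0.0035 when WT replicate 1 was dropped), Snord82 from -0.15 to 0.08 (positive in the same fits, 0.03 in the first), Snord88a from -0.57 to 0.44 (likewise, 0.08 in the second) and Snord47 from -0.008 (without WT replicate 2) to 0.73. The cause of these changes was not tested.

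The sample titles give same-numbered arrays a common number, and whether such arrays were prepared together is not known. The replicate deviations of the 2 genotypes correlated at 0.26 over tested probe sets, and at 0.24 without the members. With the replicate block, 837 probe sets were called, 38 members higher, 26 C/D box, 11 H/ACA box and 2 Cajal body members, and 1 host gene. The host and protein gene alternatives were chosen after seeing the data.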
